A study of Mus musculus with 2 samples.

Results

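The microRNA genes Mir140, Mir214, Mir199b, Mir199a-2 and Mir199a-1, known from mesenchyme and cartilage, were examined in small-RNA libraries of mouse embryonic midbrain. They were chosen by gene symbol, with earlier results of these data known. All 5 were found among the 1973 microRNA genes in the deposited count tables. The tissue came from healthy B6NCrl embryos at embryonic day 12.5, with males and females mixed. Tissue of 120 embryos was pooled for replicate 1 and of 88 for replicate 2, and RNA below 30 nucleotides was sequenced. These 2 libraries form 1 group without a treatment or a second tissue, so every comparison below is between genes or between the 2 pools.

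A microRNA is cut from a hairpin in a longer transcript, first by Drosha and then by Dicer, and either arm of the hairpin (5p or 3p) can be loaded into an Argonaute protein. The loaded strand pairs with messenger RNAs mainly through its seed, bases 2 to 8, and lowers their translation and stability. Mir199a-2 and Mir214 are processed from Dnm3os, a non-coding RNA that is antisense to the dynamin gene Dnm3 and is known for its role in skeletal development. Mir140 is known as a microRNA of cartilage, where the transcription factor Sox9 controls it. Head mesenchyme and forming skull tissue lie next to the midbrain at this stage.

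The mature sequences show which of the 5 genes share an arm. Whether a read is unique in the whole genome was not computed. The RefSeq set used (GRCm38.p6) holds 8 mature entries for these genes, with none for the 5p arm of Mir140 or of Mir199b. The entries are written 5′ to 3′ with the seed in capitals.

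miR-140-3p of Mir140: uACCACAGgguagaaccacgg

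miR-214-5p of Mir214: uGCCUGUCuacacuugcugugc

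miR-214-3p of Mir214: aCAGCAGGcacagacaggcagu

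miR-199a-5p of Mir199a-1 and Mir199a-2: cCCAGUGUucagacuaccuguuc

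miR-199a-3p of Mir199a-1 and Mir199a-2, and miR-199b-3p of Mir199b: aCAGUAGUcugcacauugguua

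The 3p arm is therefore the same 22 bases in all 3 Mir199 genes, and the 5p arm the same 23 bases in Mir199a-1 and Mir199a-2. The hairpin of Mir199b carries 1 substitution in the matching 5p stretch, C10U, counted from base 1 of miR-199a-5p. It lies outside the seed and is in capitals below, beside the shared stretch.

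Mir199a-1 and Mir199a-2, 5p stretch: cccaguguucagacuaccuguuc

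Mir199b, 5p stretch: cccaguguuUagacuaccuguuc

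Around the arms the identity runs a little further. The longest run of identical bases was 27 between Mir199a-1 and Mir199a-2 (on the 5p side), 28 between Mir199a-1 and Mir199b, and 27 between Mir199a-2 and Mir199b (both on the 3p side). The whole hairpins of Mir140 and Mir214 are shown next for contrast, with the RefSeq mature entries in capitals, because neither shared a stretch of 20 bases with any other of the 1005 hairpins in the table.

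Mir140 hairpin, chr8:107551244-107551313, plus strand: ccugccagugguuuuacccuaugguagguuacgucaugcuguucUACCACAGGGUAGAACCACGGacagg

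Mir214 hairpin, chr1:162223368-162223477, plus strand: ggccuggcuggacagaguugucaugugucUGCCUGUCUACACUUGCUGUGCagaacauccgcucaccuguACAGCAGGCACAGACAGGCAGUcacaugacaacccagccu

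Each of the 5 genes had at least 1 seed in common with another gene. Only listed arms were compared, so the 5p seed of Mir140 was not examined. The seed of miR-214-5p occurred in no other mature entry. That of miR-214-3p was shared with Mir761, which had 0 counts in both libraries, where a count of 0 allows up to 0.648 CPM in replicate 1 and 1.07 CPM in replicate 2 (3 counts). That of miR-140-3p was shared with Mir497b, at 1.51 CPM from 7 counts in replicate 1 and 0.356 CPM from 1 count in replicate 2. The opposite strand of Mir497b had 2869 reads in replicate 1 and 1827 in replicate 2, which are not counted here. Both Mir199 seeds occurred in no RefSeq entry outside the Mir199 genes.

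On GRCm38, Mir140 (ENSMUSG00000065439.1) lies within the ubiquitin ligase gene Wwp2, on the same strand, and overlaps an exon only of a retained-intron transcript. Mir214 (ENSMUSG00000065516.1) and Mir199a-2 (ENSMUSG00000070126.1, chromosome 1 from 162217814 to 162217923) both overlap exons of Dnm3os on the plus strand, 5444 bases apart, and lie in an intron of Dnm3 on the opposite strand. The other Mir199 copies lie antisense to further dynamin genes. Mir199b (ENSMUSG00000092807.1, chromosome 2 from 32318460 to 32318569, plus strand) is within an intron of Dnm1, and Mir199a-1 (ENSMUSG00000065547.1, chromosome 9 from 21496495 to 21496564, minus strand) is within an intron of Dnm2.

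The files hold raw counts per gene, 4629302 assigned to the own strand of microRNA genes in replicate 1 and 2805487 in replicate 2. Levels are given as CPM, counts per 1000000 of these assigned counts, and are not divided by length, since a read covers about 1 mature arm whatever the hairpin's length. Reads that aligned to several places made up 33.4% of all reads in each library and belong to no gene in the tables. The labelled tissue was checked against neural microRNAs. Their sum over 9 genes was 8333 CPM in replicate 1 and 7507 CPM in replicate 2. Mir137 (3894 ± 467.3 CPM, SD, n = 2) and Mir153 (3399 ± 159 CPM) led. The 3 Mir124a copies had at most 14.9 CPM each and Mir9-3 had 281 ± 49.3 CPM, while Mir9-1 was not found. Reads that aligned to several places are left out, so low values here do not show that miR-124 or miR-9 was scarce. Intervals below are 95% Clopper-Pearson intervals and cover counting error only.

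Mir140 and Mir214 held nearly all of the counts. Mir140 had 18931 counts in replicate 1, or 4089 CPM (interval 4031 to 4148), and 15784 in replicate 2, or 5626 CPM (5539 to 5714). Mir214 had 13012 counts in replicate 1, or 2811 CPM (2763 to 2859), and 16518 in replicate 2, or 5888 CPM (5799 to 5978). Both genes were thus higher in replicate 2, and Mir214 moved further. Together the 5 genes summed to 7291 CPM, or 0.729% of assigned counts, in replicate 1 and to 12093 CPM, or 1.21%, in replicate 2 (mean 9692 ± 3396 CPM, SD, n = 2).

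The 3 Mir199 genes were lower and spread over 2 orders of magnitude. Mir199b had 1612 counts (348 CPM, interval 331 to 366) in replicate 1 and 1460 (520 CPM, 494 to 548) in replicate 2. Mir199a-2 had 185 counts (40.0 CPM, 34.4 to 46.2) and 146 counts (52.0 CPM, 43.9 to 61.2) in the same order. Mir199a-1 had 11 counts in replicate 1 (2.38 CPM, 1.19 to 4.25) and 18 in replicate 2 (6.42 CPM, 3.80 to 10.1), so its interval was the widest of the 5 relative to its level. Together they reached only 391 CPM in replicate 1 and 579 CPM in replicate 2.

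**Figure D1:**
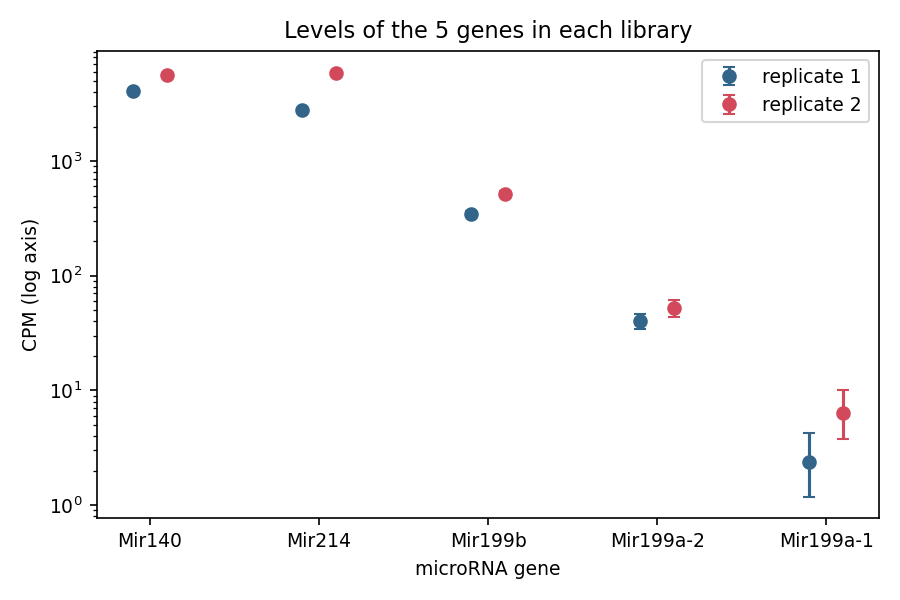
Level of each gene in counts per 1000000 assigned own-strand counts (log axis) in replicate 1 (blue) and replicate 2 (red), with 95% Clopper-Pearson intervals that are narrower than the point for the 3 most abundant genes. Every gene is higher in replicate 2, and levels fall from 4089 and 5626 CPM for Mir140 to 2.38 and 6.42 CPM for Mir199a-1.

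By mean level the order was Mir140 (4858 ± 1087 CPM, SD, n = 2), Mir214 (4349 ± 2176 CPM), Mir199b (434 ± 122 CPM), Mir199a-2 (46.0 ± 8.54 CPM) and Mir199a-1 (4.40 ± 2.86 CPM). Mir140 and Mir214 differed by less than the SD of either, and their order changed between the libraries. Each of the other steps exceeded the spread, with no overlap between the libraries of one gene and those of the next. Among all 1973 genes, Mir140 ranked 53 in replicate 1 and 41 in replicate 2, Mir214 moved from 62 to 38, and Mir199b from 154 to 131. Mir199a-2 ranked 262 and 257, and Mir199a-1 423 and 344.

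Sequence shared with other hairpins was counted next for each gene, and its part in the levels was not tested. None of the 51 windows of 20 bases in the Mir140 hairpin, and none of the 91 in Mir214, occurred in a hairpin at another place. For Mir199b 10 of 91 windows did, covering 29 bases (26.4%) of the hairpin on its 3p side. For Mir199a-2 16 of 91 windows did, covering 54 bases (49.1%), and for Mir199a-1 17 of 51, covering 55 bases (78.6%). In each case the other hairpins were the remaining Mir199 genes. The percentages depend on the annotated hairpin, which is 70 bases long for Mir199a-1 and 110 for the other Mir199 genes.

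Mir199b had 8.71 times the counts of Mir199a-2 in replicate 1 (interval 7.48 to 10.2) and 10 times in replicate 2 (8.43 to 11.9). Both listed arms of Mir199a-2 and of Mir199a-1 stand in another hairpin, and so does the 1 listed arm of Mir199b. The tables give counts per gene and not per arm, so which arm supplied the reads of a Mir199 gene was not analysed here, and the part of shared sequence in these levels was not tested. Listed arms were also compared for the 325 quantified genes (at least 10 counts in both libraries) with mature entries in RefSeq. Every listed arm stood in another hairpin for 9 genes, with a median of 69.9 CPM. Some but not all did for 33 genes, with a median of 147 CPM, and none did for 283 genes, with a median of 164 CPM. The 3 Mir199 genes are among the 9 and so enter their median. Mir199b is placed there by its 1 listed arm, since its other arm, which carries the substitution C10U, has no entry. The medians were not tested against each other. Since multimapping reads carry no gene, the counts of the Mir199 genes leave out whatever aligned to more than 1 copy, and their low level does not show that miR-199 was scarce in the tissue.

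**Figure D2:**
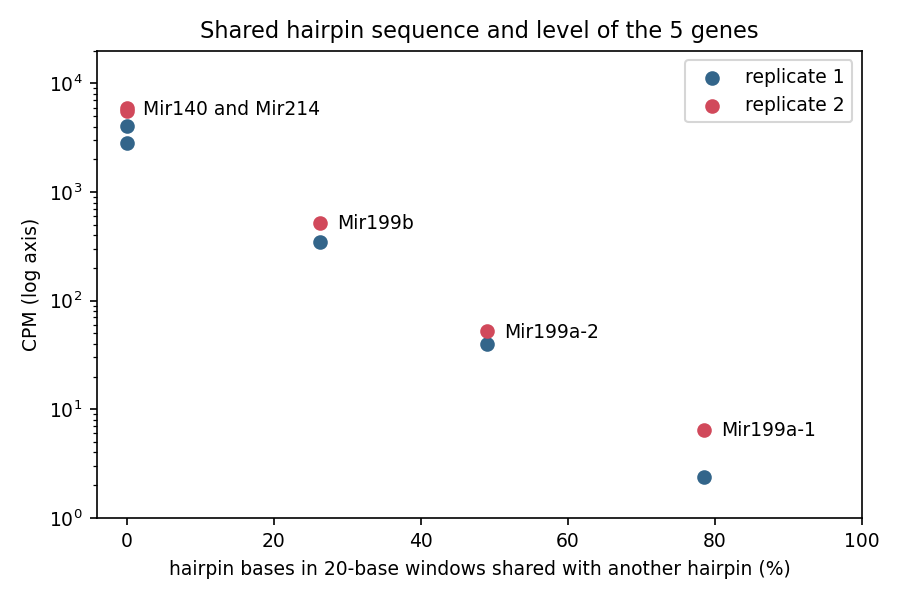
Level of each of the 5 genes (CPM, log axis) in replicate 1 (blue) and replicate 2 (red) against the percentage of its hairpin covered by 20-base windows that also occur in another RefSeq hairpin. Mir140 and Mir214 stand at 0%, and Mir199b at 26.4%, Mir199a-2 at 49.1% and Mir199a-1 at 78.6% have successively lower levels in both libraries.

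Within each library the genes were then set against each other. For each Mir140 count there were 0.687 Mir214 counts in replicate 1 (interval 0.672 to 0.703) and 1.05 in replicate 2 (1.02 to 1.07), so Mir140 was the more abundant in replicate 1 and Mir214 in replicate 2. Mir214 took 38.6% of the 5 genes' counts in replicate 1 and 48.7% in replicate 2, and Mir140 took 56.1% and 46.5%. Mir140 against Mir199b moved less, with 11.7 counts of Mir140 for 1 of Mir199b in replicate 1 (11.2 to 12.4) and 10.8 in replicate 2 (10.2 to 11.4).

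The Dnm3os pair gave very unequal assigned counts. Both listed arms of Mir199a-2 also stand in other hairpins, and those of Mir214 do not. Reads that aligned to several places carry no gene, so the ratio does not compare the amounts of these microRNAs in the tissue. For each Mir199a-2 count there were 70.3 Mir214 counts in replicate 1 (interval 60.8 to 81.8) and 113 in replicate 2 (96.1 to 134), and these intervals do not overlap. The Mir199a-2 to Mir199a-1 ratio was 16.8 (9.18 to 34.3) in replicate 1 and 8.11 (4.96 to 14.1) in replicate 2, with overlapping intervals. The ratio of Mir199b to Mir199a-2, above, also overlapped between the libraries. Overlapping intervals do not show that a ratio was the same in both pools.

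**Figure D3:**
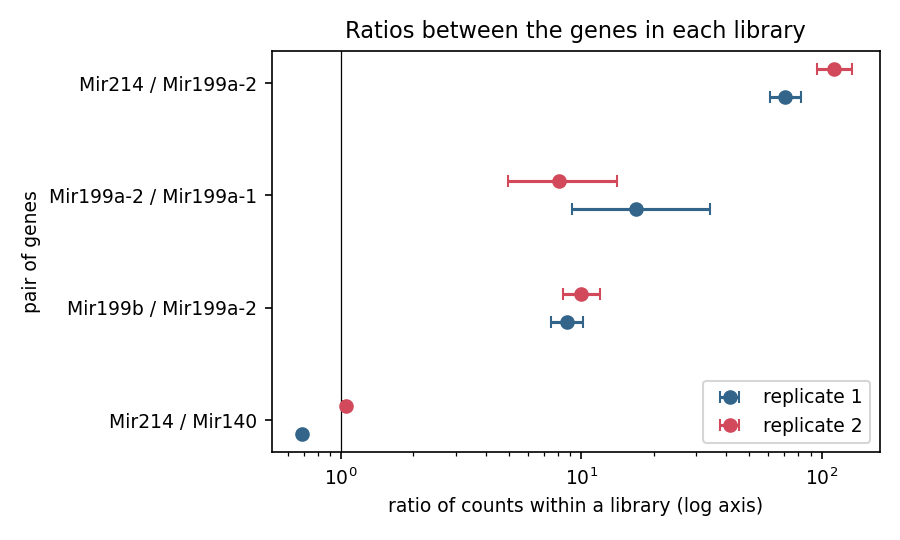
Ratio of the counts of 1 gene to those of another within replicate 1 (blue) and within replicate 2 (red), on a log axis, with 95% intervals from the Clopper-Pearson method and a line at 1. Mir214 per Mir140 moves from 0.687 to 1.05 across the line, and Mir214 per Mir199a-2 from 70.3 to 113, while the intervals of the other pairs overlap.

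The difference between the pools was next set against counting noise for every quantified gene by Fisher's exact test (two-sided), adjusted over 380 genes by the Benjamini-Hochberg method. The test compares these 2 libraries and no conditions. It called 54.2% of the quantified genes in either direction at an adjusted p of 0.05, and 27.1% higher in replicate 2. All 5 genes were called higher in replicate 2, with a median log2 ratio (replicate 2 over replicate 1) of 0.58, against 0.04 over all quantified genes. The 5 were chosen with earlier results of these data known, and Mir214 and Mir199a-2 share the transcript Dnm3os. These medians are therefore a description and no test of the 5 as a set. Since the test calls more genes than it leaves, a call by itself says little about these 5, and the sizes of the ratios follow.

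Mir214 had a log2 ratio of 1.07 ± 0.02 (counting SE), or 2.09-fold, and an adjusted p in the exact test too small for double precision. It ranked 6 of 380 quantified genes by this ratio, and 1 of the 98 genes with a mean of 1000 CPM or more. Mir140 had a log2 ratio of 0.46 ± 0.02, or 1.38-fold (adjusted p = 1.69e-189, exact test), and ranked 53, or 9 of the 98 abundant genes. The median absolute log2 ratio of all quantified genes was 0.24 and their SD 0.46, so Mir140 lay about 1 SD from 0 and Mir214 more than 2 SD. This SD includes genes of few counts with a far larger counting SE, such as Mir199a-1 at 0.55. No SD was computed for the abundant genes alone.

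Mir199b had a log2 ratio of 0.58 ± 0.05, or 1.49-fold (adjusted p = 1.30e-27, exact test). Mir199a-2 had 0.38 ± 0.16, or 1.30-fold (adjusted p = 0.0371, exact test), and this call was lost with DESeq2 size factors (adjusted p = 0.0582, exact binomial test) and without a filter on low counts (adjusted p = 0.0695, Fisher's exact test). Mir199a-1 had the largest ratio of the 5, 1.43 ± 0.55, or 2.70-fold (adjusted p = 0.0225, exact test), but on only 11 and 18 reads. Without Mir214, the other 4 genes summed to 4480 CPM in replicate 1 and 6205 CPM in replicate 2, a 1.39-fold difference, against 1.66-fold for all 5.

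**Figure D4:**
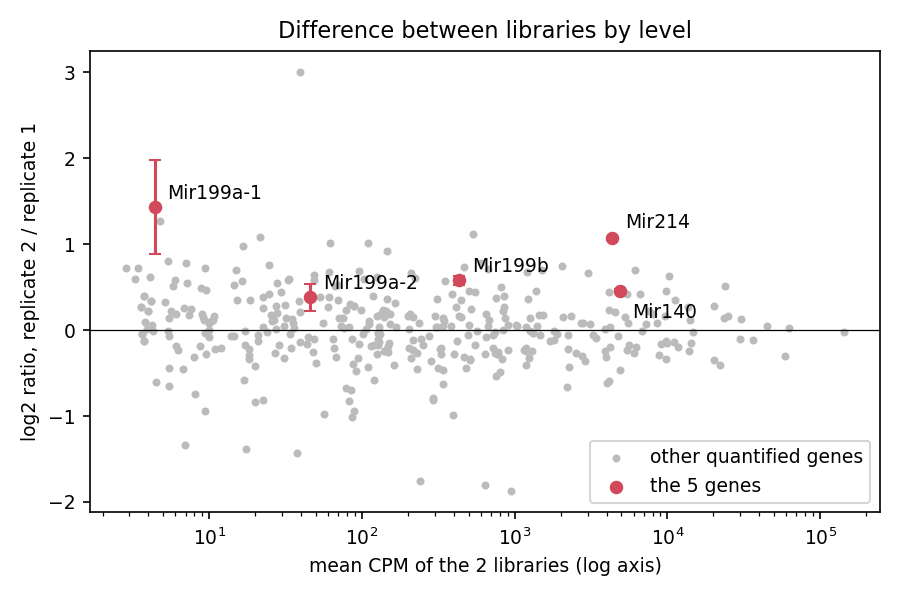
Log2 ratio of replicate 2 over replicate 1 against the mean level (CPM, log axis) of the 380 quantified genes in grey, with the 5 genes in red and their counting SE as bars. Mir214 at 1.07 stands above all other genes with at least 1000 CPM, Mir140 at 0.46 and Mir199b at 0.58 lie in the upper part, and Mir199a-1 has a wide error.

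Other microRNAs known from mesenchymal or skeletal tissue were read from a list of 9 genes, chosen with earlier results of these data known. Over all quantified genes, 54.2% were called in either direction and 27.1% were called higher in replicate 2. Of these, 8 were quantified, 6 were called higher in replicate 2, none lower and 2 not called, with a median log2 ratio of 0.37. Mir143, of smooth muscle and pericytes, had 8284 CPM in replicate 1 and 11351 CPM in replicate 2 (log2 ratio 0.45 ± 0.01). Mir22 had 3495 and 4767 CPM (0.45 ± 0.02). Mir455, a cartilage microRNA, had 508 and 831 CPM (0.71 ± 0.04), and Mir483, in an intron of Igf2, had 335 and 728 CPM (1.12 ± 0.05). Mir455 and Mir483 were the 2 genes on the list with a larger ratio than Mir140. Mir335, the most abundant gene on the list at 62036 and 63317 CPM, had a log2 ratio of only 0.03, and Mir145a (0.15 ± 0.09) and Mir675 (0.29 ± 0.19) were not called. Mir145b had 0 counts.

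Marker microRNAs of other cell types were read in the same way, beside the same shares of 54.2% called and 27.1% called higher over all quantified genes. All 4 quantified Hox cluster genes, of tissue caudal to the midbrain, were called higher in replicate 2, and their list summed to 225 CPM in replicate 1 and 419 CPM in replicate 2, with Mir196a-1 at 0. The epithelial list (2764 and 3549 CPM) had 6 of its 7 genes called higher, and endothelial Mir126a stood at 23434 and 26243 CPM. The choroid plexus and ciliated cell list went the other way, at 3258 and 1433 CPM with 2 of 4 called lower. Erythroid genes summed to 413 and 271 CPM, with Mir451a called lower, Mir486 called higher, Mir144 not called and a median log2 ratio of 0.20, and neural genes to 8333 and 7507 CPM with 2 called higher and 3 lower. Leukocyte genes summed to 566 and 686 CPM, with Mir223 and Mir150 called higher and Mir155 lower. No muscle gene of the 4 quantified was called, and Mir1a-1 was at 0. In bulk tissue, a different number of cells of a type and a different amount of RNA per cell cannot be told apart, and the part of these other tissues in the ratios of Mir140, Mir214 and the Mir199 genes was not tested.

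**Figure D5:**
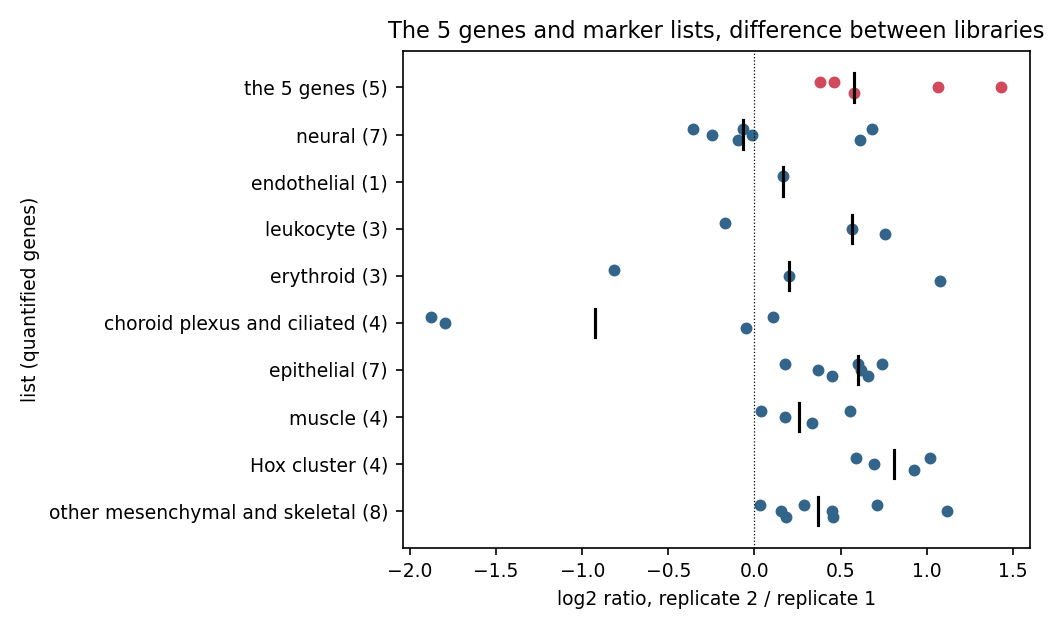
Log2 ratio of replicate 2 over replicate 1 for the 5 genes (red) and for the quantified genes of each marker list (blue, number in brackets), with the list median as a black bar. The 5 genes lie between 0.38 and 1.43, all Hox cluster and epithelial genes lie above 0, and 2 choroid plexus and ciliated cell genes lie at -1.80 and -1.88.

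The genes with the most similar levels were found as the 2 nearest quantified genes by Euclidean distance of log2(CPM + 1) over the 2 libraries. For Mir140 these were Mir1983 (distance 0.214) and Mir125a (0.226). For Mir214 they were Mir22 (0.438) and Mir140 itself (0.545), both farther away than the nearest genes of Mir140. Mir199b lay closest to Mir429 (0.153) and Mir217 (0.180), Mir199a-2 to Mir196b (0.169) and Mir1247 (0.194), and Mir199a-1 to Mir3474 (0.186) and Mir450-2 (0.451). With 2 libraries such a distance describes little beyond a similar level.

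Reads on the opposite strand of the 5 genes were nearly absent. Mir214 had 2 such reads in replicate 1 and 0 in replicate 2, and the other 4 genes had 0 in both libraries. The strand chosen for counting therefore did not change any count of Mir140 or of the Mir199 genes.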

How the data were processed

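Small RNA was sequenced from 2 pools of midbrain. The authors deposited raw counts of reads per microRNA gene, derived, per the deposited read-me files, from alignments to mm10 with genome annotation M4. No aligner or counting program was given in the sources used here. Own-strand counts (43.1% and 41.8% of reads) were used. Rows that name no gene, 56.9% and 58.2% of reads, stayed out of totals and tests.

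Symbols and positions came from GENCODE release M21 (GRCm38, the assembly of mm10), and hairpin and mature sequences from RefSeq (GRCm38.p6); all 5 genes had a hairpin at the same coordinates. CPM, exact intervals and Fisher's exact tests across all genes with at least 10 counts in both libraries were computed with SciPy 1.17.1. The test was run on simulated counts with counting noise only, which does not cover variation between pools. Alternatives used edgeR 4.0.16 TMM factors and DESeq2 1.42.0 size factors with an exact binomial test, counts on either strand, no filter, a total without Mir99a, and all reads as denominator.

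Named are the 5 genes, the listed mesenchymal and marker genes, and the 2 nearest genes of each. Genes of the same seed were chosen after their sequences were compared. The genes and lists were chosen with earlier results of these data known.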

Additional observations from a re-analysis of the deposited data

How the results depend on the processing

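The log2 ratios of the 5 genes kept their direction under the 5 alternatives run for them (both scalings, either strand, no filter, total without Mir99a), from 1.03 to 1.07 for Mir214, 0.42 to 0.46 for Mir140, 0.54 to 0.58 for Mir199b, 0.35 to 0.38 for Mir199a-2 and 1.40 to 1.43 for Mir199a-1. Of the 5, 4 stayed called when DESeq2 size factors were used and when the filter was dropped, Mir199a-2 being the exception both times. DESeq2 size factors shifted the log2 ratios by a median of -0.035, and TMM factors by -0.009. With TMM factors Mir199a-2 stayed called (adjusted p = 0.0380, exact binomial test, as used for the DESeq2 size factors). The cause of the lost call was not tested for the size factors, while dropping the filter raises the genes in the adjustment from 380 to 746. Taking all reads as the denominator adds unmapped reads, multimapping reads and other reads assigned to no gene. The summed level was then 4096 CPM, Mir140 2056 CPM, Mir214 1835 CPM, Mir199b 184 CPM and Mir199a-2 19.5 CPM. Leaving out a replicate gave the value of the other, 7291 or 12093 CPM for the sum, 2811 or 5888 CPM for Mir214 and 2.38 or 6.42 CPM for Mir199a-1, and the means of these 2 genes move by over 1.5 times without replicate 2; no test of the difference can then be made. No paired analysis was possible because there is 1 group. Depth limits Mir199a-1, with 11 and 18 counts, and 2 libraries limit every SD.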
